A study of Mus musculus with 6 samples.

Results

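The 10 genes described here encode the DNA-binding subunits of NF-κB and the proteins that restrain them. They are the rows of the deposited expression table with the symbols Nfkb1, Nfkb2, Rel, Rela, Relb, Nfkbia, Nfkbib, Nfkbie, Nfkbiz and Tnfaip3. All 10 are listed among the 16880 genes of the table, and all 10 passed the filter on low counts that left 11983 genes to test. RNA was taken from cells of the labelled line ATDC5, a mouse chondrogenic line. All cells received IL-1β at 10 ng/mL, and NP-G2-044 at 10 μM was added for 3 of the 6 libraries, with 24 h as the time in the written protocol. The compound inhibits fascin, a protein that bundles actin filaments, and the treatment field of the samples given the inhibitor writes NP-G2-047 where their titles write NP-G2-044. The methods describe cultures of primary mouse articular chondrocytes and do not name ATDC5. For the sequencing they speak of chondrocytes and of biological replicates, while the labels name only the cell line. All 6 libraries came from cells stimulated with IL-1β, and cells without the cytokine were not analysed here, so each difference is between stimulated cells with and without the inhibitor.

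NF-κB is a family of transcription factors that act as pairs of subunits. Rela, Relb and Rel encode the subunits that can activate transcription, and Nfkb1 and Nfkb2 encode precursors that are processed into the DNA-binding partners p50 and p52. In a resting cell the pairs are held in the cytoplasm by IκB proteins, which the genes Nfkbia (IκBα), Nfkbib (IκBβ) and Nfkbie (IκBε) encode. When IL-1β binds its receptor, the IκB kinase phosphorylates the IκB proteins, a ubiquitin ligase marks them for degradation, and the released pairs enter the nucleus. Several of the genes they switch on encode their own brakes, among them IκBα and A20, the ubiquitin-editing enzyme encoded by Tnfaip3. Nfkbiz encodes IκBζ, an atypical IκB protein of the nucleus that assists transcription of a subset of inflammatory genes. In cartilage, IL-1β acting through this pathway is known for raising chemokines and matrix-degrading enzymes.

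Library totals ran from 16615824 to 16878164 reads with IL-1β and from 17529844 to 17735860 with the inhibitor, and each member had between 102 and 4777 reads in a library. Fscn1, which encodes the target of the inhibitor, was at 616.2 ± 9.46 TPM without it and at 252.4 ± 2.47 TPM with it (SD, n = 3 each). The label of a chondrogenic line was checked against marker genes. Of 16 chondrocyte markers 11 are listed, 8 of them below 1 TPM in every library, so that most of the markers examined were at or near 0. The defining cartilage collagen gene Col2a1 had 0.217 ± 0.0208 TPM and 0.04 ± 0.02 TPM, and Sox9, a chondrocyte transcription factor, was at 6.44 ± 0.675 TPM without and 11.4 ± 0.0569 TPM with the inhibitor (SD, n = 3 each). The summed level of the listed chondrocyte markers was 22.7 to 23.8 TPM without the inhibitor and 17.8 to 18.8 TPM with it. Of the 6 tested, 1 was higher and 3 were lower, beside 40.2% and 39.8% of all genes. Col2a1, counted among the 3 lower, rested on 32 reads without the inhibitor and 6 with it. It passed the filter on low counts only through the group where it was higher, so its call is no support for a fall of the list. Sox5, another chondrocyte transcription factor, went from 10.28 to 2.27 TPM. Fibroblast markers, all 11 listed, summed to 5860 to 6030 TPM without the inhibitor and 1510 to 1620 TPM with it, with 8 of the 10 tested lower, beside 39.8% of all genes. Most of that sum was S100a4, a calcium-binding protein gene, at 4313 and 730.4 TPM, while Pdgfra, a growth factor receptor gene (2.36 and 8.69 TPM), and Fn1, the fibronectin gene (360.5 and 416.6 TPM), rose. Immune cells use the NF-κB genes heavily, so their markers were examined too. Of 7 listed macrophage markers 6 were below 1 TPM in every library, and Ptprc, the pan-leukocyte gene CD45, had no read in any. The sum of that list went from between 11.3 and 14.6 TPM to between 124 and 135 TPM, through Cd68, a lysosomal membrane protein, which rose from 12.4 to 129.9 TPM. The 6 listed lymphocyte markers summed to at most 0.87 TPM without the inhibitor and at most 7.28 TPM with it, with Lck, a T-cell kinase gene, at 0.507 and 6.3 TPM. The 4 listed endothelial markers summed to at most 0.55 TPM. The part of the fibroblast genes, Cd68 and Lck in the results was not tested. In bulk RNA, fewer cells of a type and less RNA per cell cannot be told apart.

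In the mouse genome (GRCm38, GENCODE vM21) the members are spread over several chromosomes. Among the subunit genes, Nfkb1 spans chr3:135584655-135691547 (minus strand), Nfkb2 chr19:46304320-46312385 (plus), Rel chr11:23736847-23770970 (minus), Rela chr19:5637483-5648130 (plus) and Relb chr7:19606217-19629438 (minus). Among the inhibitor genes, Nfkbia spans chr12:55489410-55492647 (minus), Nfkbib chr7:28758251-28767512 (minus), Nfkbie chr17:45555703-45563169 (plus), Nfkbiz chr16:55811375-55838899 (minus) and Tnfaip3 chr10:19000910-19015657 (minus).

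The κB consensus motif, the 10-base sequence that NF-κB pairs bind, was searched on both strands in RefSeq promoters (GRCm38.p6), each 250 bases before to 50 bases after a start of transcription. A promoter was given for 7 of the 10 members. Of these 7 genes, 5 had at least 1 match, namely Nfkb2, Rel, Nfkbia, Nfkbie and Tnfaip3, whereas 9.55% of all 27025 genes with a promoter had one. Rela and Nfkbib had none in this window. The genes with no entry were Nfkb1, Relb and Nfkbiz. The 150 bases before the start of Nfkbia (chr12:55492648-55492797, minus strand) are shown because the gene is the classical feedback target and fell here, with the match, which begins 29 bases before the start, in capitals.
Nfkbia: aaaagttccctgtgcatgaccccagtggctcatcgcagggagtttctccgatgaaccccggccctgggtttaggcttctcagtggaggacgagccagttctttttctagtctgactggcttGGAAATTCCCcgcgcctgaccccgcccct

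The matches of the other genes are shown with 9 flanking bases on each side, for comparison of their letters between members that rose, fell or did not pass the test. Each is on the strand of its gene and for the most upstream start given. Capitals mark the match, which is 11 bases long where 2 matches overlap. Later starts of Nfkb2 had further matches, not shown. The positions are chr19:46304689-46304717 and chr19:46304717-46304744 for Nfkb2 (plus strand), chr11:23771042-23771070 for Rel (minus strand), chr17:45555585-45555612 for Nfkbie (plus strand), and chr10:19015517-19015544 and chr10:19015404-19015431 for Tnfaip3 (minus strand).
Nfkb2, 39 bases before the start: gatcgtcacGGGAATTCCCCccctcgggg
Nfkb2, 11 bases before the start: gggccgaaaGGGGCTTTCCcggctggag
Rel, 92 bases before the start: gtaagcagcGGGAAATCCCCccccctccc
Nfkbie, 106 bases before the start: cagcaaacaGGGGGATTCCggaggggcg
Tnfaip3, 125 bases before the start: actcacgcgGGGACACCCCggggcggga
Tnfaip3, 12 bases before the start: atttccatcGGAAATCCCCctgttggca

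A match is a description of letters and not a site shown to be bound. The 5 genes with a match did not move one way: Nfkb2 and Nfkbie were higher with the inhibitor, Nfkbia and Tnfaip3 were lower, and Rel did not pass the test. Both genes searched without a match, Rela and Nfkbib, were higher. The window searched for Nfkbib, chr7:28766595-28766894, lies inside the gene span given above and does not reach its upstream end. The same holds for the most upstream Nfkb2 window, chr19:46304487-46304786. The matches shown for Tnfaip3 also lie inside the span of their gene. Positions before a start therefore refer to the RefSeq start and need not lie upstream of the gene span. The last 50 bases of the Nfkbib window were in no GENCODE transcript of the gene, and the same held for Nfkbie.

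With NP-G2-044, transcripts of 5 members were higher, of 4 were lower, and 1 did not pass the test. The rises were those of Nfkbib, Relb, Nfkbie, Nfkb2 and Rela. The falls were those of Nfkbiz, Nfkb1, Nfkbia and Tnfaip3. The test was edgeR's quasi-likelihood test on read counts, with Benjamini-Hochberg adjustment over all 11983 genes, and a positive log2 fold change means more RNA with the inhibitor than without it. Of all genes tested, 80.0% had an adjusted p below 0.05 (40.2% higher and 39.8% lower), so that 9 of 10 members is near the share of genes at large. The groups of libraries did not overlap for 9 of the 10 members and for 80.8% of all genes (40.5% higher and 40.3% lower with the inhibitor). A stricter pair of cutoffs asked also for a log2 fold change over 1 in either direction. It was passed by 5 members, 2 of them higher and 3 lower. Both cutoffs were passed by 16.6% of all genes, 6.48% higher and 10.1% lower. The median log2 fold change of the members was 0.15, against 0.00 for all genes tested, and conceals changes from −1.60 to 1.76.

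**Figure D1:**
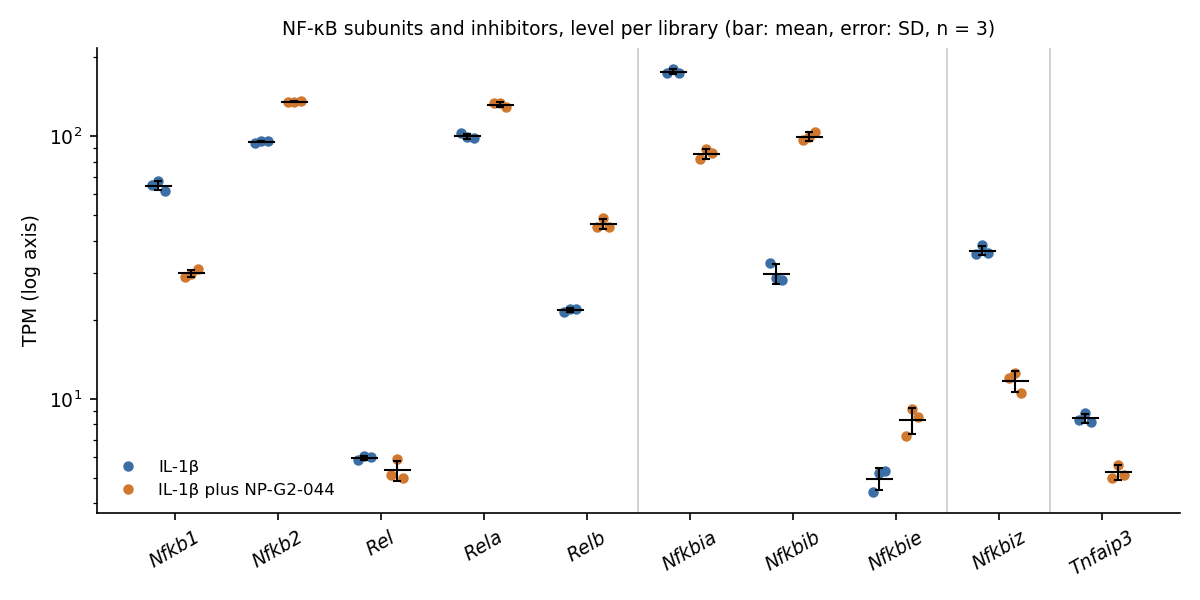
Level of each of the 10 genes in TPM on a log axis, with 1 point per library (blue, IL-1β; orange, IL-1β plus NP-G2-044), a bar for the mean and an error bar for the SD (n = 3). The points of the groups are apart for every gene but Rel, where the second inhibitor library, at 5.88 TPM, lies within the IL-1β range.

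**Figure D2:**
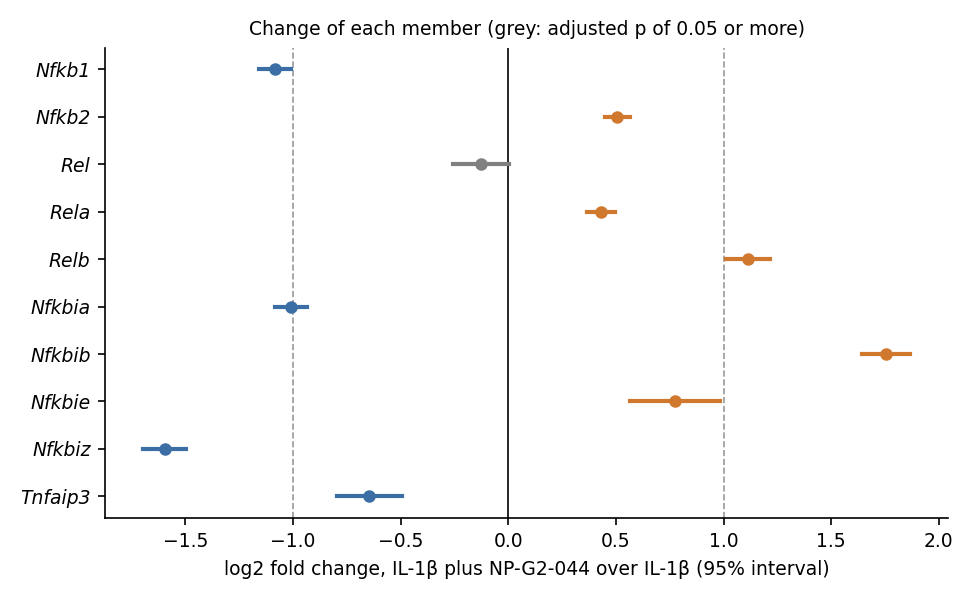
Log2 fold change of each gene with its 95% interval, with over without NP-G2-044, with dashed lines at a log2 fold change of −1 and 1. Orange genes were higher, blue genes lower, and the interval of Rel (grey) runs from −0.26 to 0.00.

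Among the subunits that activate transcription, Relb changed most. Relb encodes RelB, the partner of p52 in the alternative pathway. It was at 21.4, 22.0 and 22.0 TPM in the IL-1β libraries and at 45.3, 48.7 and 44.9 TPM in the inhibitor libraries. Every inhibitor library was thus above every IL-1β library, by a fold of 2.16 in the fit. The log2 fold change was 1.11 ± 0.051 (SE; edgeR adjusted p = 2.3e-26), from 1340 reads in the 3 IL-1β libraries together and 3047 in the others. Of all genes tested, 5.34% rose as much or more.

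Rela, which encodes p65, the main activating subunit of the classical pathway, was the most abundant activator in both groups. Its level was 102.4, 98.97 and 98.32 TPM with IL-1β and 133.4, 133.2 and 128.7 TPM with the inhibitor. The libraries of the groups did not overlap. The rise was smaller than that of Relb, with a log2 fold change of 0.43 ± 0.032 (SE; edgeR adjusted p = 1.09e-17), a fold of 1.35.

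Rel encodes c-Rel, a subunit best known from lymphocytes, and was the scarcest subunit. It was at 5.87, 6.07 and 5.98 TPM with IL-1β and at 5.14, 5.88 and 5.00 TPM with the inhibitor. The second inhibitor library lay inside the IL-1β range and the others lay below it. The log2 fold change of −0.13 had a 95% interval from −0.26 to 0.00 and did not pass the test (adjusted p = 0.065, edgeR). Without inhibitor replicate 2 it was −0.20 and did pass (adjusted p = 0.00825, edgeR, with 0.00825 to 0.278 over all alternatives).

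The precursor genes moved apart. Nfkb1, which encodes p105, the precursor of p50, was at 65.3, 67.2 and 62.0 TPM with IL-1β and at 29.1, 29.8 and 31.1 TPM with the inhibitor. All inhibitor libraries were below all IL-1β libraries, and the mean fell from 64.9 ± 2.6 to 30.01 ± 1.0 TPM (SD, n = 3 each). The fitted log2 fold change was −1.08 ± 0.0365 (SE; edgeR adjusted p = 2.73e-32), which 9.07% of all genes tested matched or exceeded downwards.

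Nfkb2 encodes p100, which serves as an inhibitor itself until it is processed to p52. It was at 94.5, 95.7 and 95.6 TPM with IL-1β and at 134.7, 134.7 and 135.9 TPM with the inhibitor. The libraries of each group lay within 2 TPM of each other and the groups were far apart. Its log2 fold change was 0.51 ± 0.0291 (SE; edgeR adjusted p = 4.23e-22), a fold of 1.42. Its exons overlap those of Psd on the opposite strand over 299 bases and those of a non-coding RNA over 531 bases. The deposited counts of Nfkb2 were not whole numbers in any of the 6 libraries. Psd itself was at 13.0 and 16.2 TPM, with a log2 fold change of 0.30.

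The subunits therefore made up different shares of their summed level. TPM is per transcript length, so that levels of different genes can be set side by side within a library. The summed level of the 5 subunits was 284.0 to 290.0 TPM with IL-1β and 345.6 to 352.3 TPM with the inhibitor. Nfkb1 made up 22.5 ± 0.662% of it without the inhibitor and 8.61 ± 0.336% with it. The share of Relb was 7.58 ± 0.183% and 13.3 ± 0.47%, and that of Nfkb2 was 33.1 ± 0.521% and 38.8 ± 0.544%. Rela held 34.7 ± 0.622% and 37.8 ± 0.57% (SD, n = 3 each for all shares). For every IL-1β library there was 1.43 to 1.54 times as much Nfkb2 as Nfkb1, and for every inhibitor library 4.37 to 4.63 times as much. The ratio of Relb to Nfkb1 was 0.327 to 0.355 without the inhibitor and 1.44 to 1.63 with it. Shares and ratios of the members are given without a test.

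**Figure D3:**
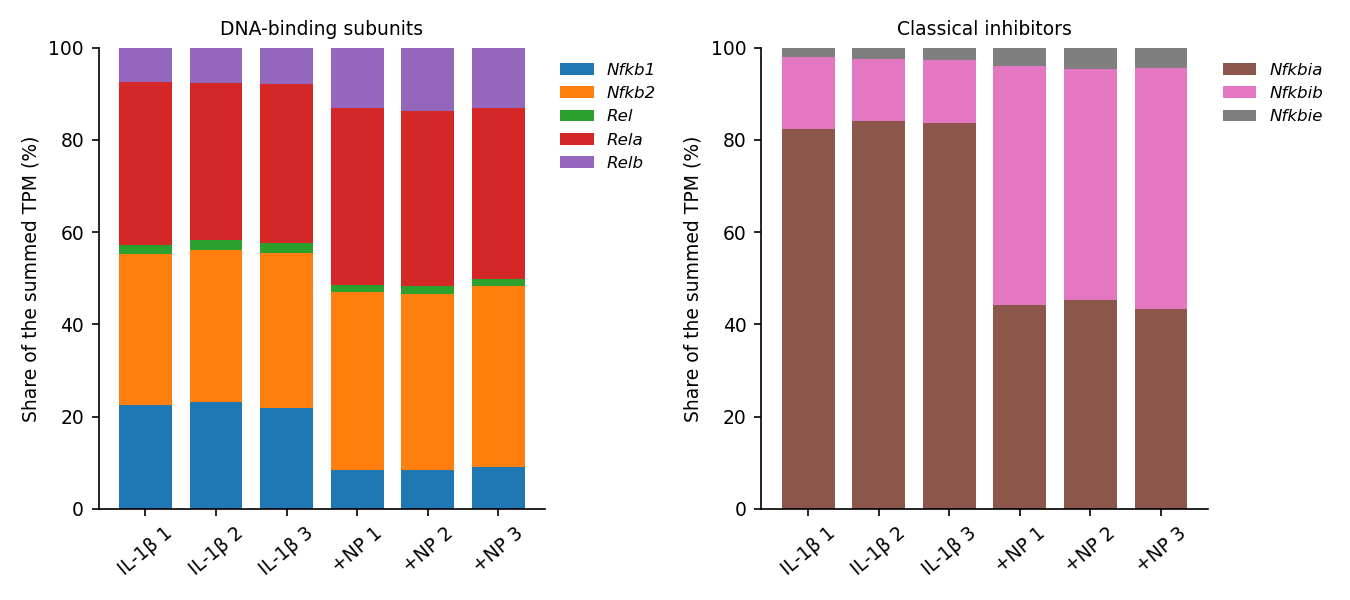
Share of each gene, in percent, of the summed TPM of the 5 DNA-binding subunits (left) and of the 3 classical inhibitors (right), with 1 bar per library (+NP, IL-1β plus NP-G2-044). The Nfkb1 part is between 21.9% and 23.2% in the IL-1β libraries and between 8.38% and 9.0% in the others, and Nfkbib goes from at most 15.6% to at least 50.1% of the inhibitors.

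The classical inhibitors changed places. Nfkbia encodes IκBα, the inhibitor that is degraded and made again fastest, and was the most abundant member with IL-1β. It was at 174.5, 180.2 and 173.2 TPM in the IL-1β libraries and at 81.9, 89.3 and 86.0 TPM in the inhibitor libraries. The groups were far apart, and the mean went from 176 ± 3.75 to 85.7 ± 3.69 TPM (SD, n = 3 each). The fitted log2 fold change was −1.01 ± 0.0366 (SE; edgeR adjusted p = 7.06e-31), with a 95% interval from −1.08 to −0.94. That interval spans the cutoff of 1 in size, and without IL-1β replicate 2 or without inhibitor replicate 1 the value was −0.999 or −0.97, short of the cutoff.

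Nfkbib encodes IκBβ, an inhibitor that is degraded and replaced more slowly than IκBα, and rose most of the 10. It was at 33.0, 28.8 and 28.2 TPM with IL-1β and at 96.4, 98.8 and 103.6 TPM with the inhibitor. The lowest inhibitor library was far above the highest IL-1β library, and reads went from 1055 to 3745 over 3 libraries each. Its log2 fold change was 1.76 ± 0.0549 (SE; edgeR adjusted p = 5.85e-32), a fold of 3.38 that 2.19% of all genes tested reached. Exons of Nfkbib overlap those of Sirt2, a deacetylase gene on the other strand, over 42 bases. They also overlap 314 bases of Ccer2, which was at 0.04 and 0.0467 TPM. Sirt2 rose as well, from 78.6 to 142.3 TPM, with a log2 fold change of 0.89 (adjusted p = 8.46e-29, edgeR). No source used here says if strand was used in counting, and reads of shared bases could then belong to either gene.

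Nfkbie, which encodes IκBε, was the scarcest of the 3. Its level was 4.42, 5.21 and 5.29 TPM with IL-1β and 7.24, 9.12 and 8.53 TPM with the inhibitor. All inhibitor libraries were above all IL-1β libraries, on 341 reads against 613. The log2 fold change of 0.77 ± 0.104 (SE; edgeR adjusted p = 2.97e-09) had the widest interval of the members, from 0.56 to 0.98.

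As a group, the 3 classical inhibitors summed to 206.7 to 214.2 TPM with IL-1β and to 185.6 to 198.1 TPM with the inhibitor. Nfkbia made up 83.4 ± 0.942% of that sum without the inhibitor and 44.3 ± 0.942% with it, and Nfkbib 14.2 ± 1.17% and 51.5 ± 1.18% (SD, n = 3 each). There was 5.29 to 6.26 times as much Nfkbia as Nfkbib in the IL-1β libraries and 0.83 to 0.903 times as much in the inhibitor libraries. Set against the summed subunits, the summed inhibitors stood at a ratio of 0.728 to 0.739 with IL-1β and 0.534 to 0.573 with NP-G2-044. The subunit sum counts Nfkb2, although p100 is an inhibitor itself until it is processed, so the ratio does not compare all inhibitors with all subunits. All these values are levels of transcripts, and protein was not measured in these libraries.

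Nfkbiz fell most of the 10. It was at 35.7, 38.3 and 36.0 TPM with IL-1β and at 11.96, 12.55 and 10.52 TPM with the inhibitor. No library of one group came near the other, and the log2 fold change was −1.60 ± 0.0491 (SE; edgeR adjusted p = 4.07e-34). The level with IL-1β alone was 3.02 times that with the inhibitor, and 5.27% of all genes tested fell as much or more.

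Tnfaip3 encodes A20, which takes apart the ubiquitin chains that activate the IκB kinase. It was at 8.31, 8.82 and 8.13 TPM with IL-1β and at 5.00, 5.62 and 5.14 TPM with the inhibitor. The groups did not overlap. Its log2 fold change was −0.65 ± 0.0746 (SE; edgeR adjusted p = 4.16e-11), so that it passed the test but not the cutoff on the fold change.

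The order of levels differed between the groups. With IL-1β the order was Nfkbia, Rela, Nfkb2, Nfkb1, Nfkbiz, Nfkbib, Relb, Tnfaip3, Rel and Nfkbie, and no neighbours in it overlapped over the 3 libraries. With the inhibitor it was Nfkb2, Rela, Nfkbib, Nfkbia, Relb, Nfkb1, Nfkbiz, Nfkbie, Rel and Tnfaip3, where the libraries of Rel and Tnfaip3 overlapped. Nfkb1 thus stood above Relb and Nfkbib without the inhibitor and below both with it. Set among all genes tested, none of the members had the largest change in its direction.

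**Figure D4:**
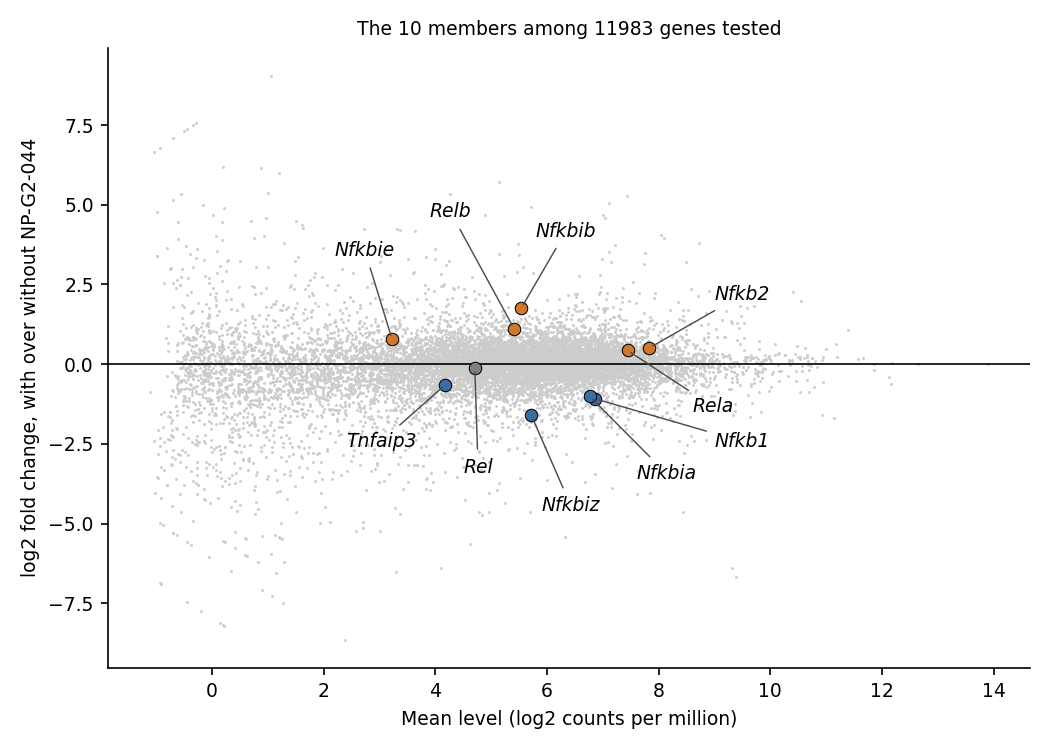
Mean level (log2 CPM) against log2 fold change for the 11983 genes tested (light grey), with the 10 members marked (orange, higher; blue, lower; dark grey, Rel). Nfkbib lies highest of the members at 1.76 and Nfkbiz lowest at −1.60.

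The enzymes that act on the IκB proteins were examined as lists. The first list, 16 genes of the IκB kinase complex and its upstream kinases and ligases, had 15 tested, 8 higher and 5 lower, with none past both cutoffs and a median log2 fold change of 0.12, beside 0.00 for all genes tested. With 40.2% of all genes higher and 39.8% lower, 13 called of 15 is near the 80.0% of genes at large. The 2 that did not pass the test were Map3k7 and Traf3. Map3k7 encodes the kinase TAK1, and Traf3 encodes an adaptor that marks NIK for degradation. Among called genes that averaged 1 TPM or more over the 6 libraries, the largest rises were those of Tab2, an adaptor of TAK1 (93.2 ± 1.72 TPM without the inhibitor, log2 fold change 0.87), of Chuk, the kinase subunit IKKα (30.2 ± 1.39 TPM, 0.54) and of Traf6, the ubiquitin ligase of IL-1 signalling (11.5 ± 0.384 TPM, 0.44). The largest falls under the same limit were those of Map3k14, which encodes NIK, the kinase that starts processing of p100 (9.06 ± 0.205 TPM, −0.64), of Traf2 (66.6 ± 2.4 TPM, −0.30) and of Tab1 (19.1 ± 0.903 TPM, −0.26). Errors of these levels, all without the inhibitor, are SD (n = 3). Birc3, a ubiquitin ligase gene below that limit and named after its value was seen, was called higher at 0.53 on 65 and 99 reads (edgeR adjusted p = 0.0332).

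Of 8 genes of the cullin ligase that ubiquitinates phosphorylated IκB, 3 were higher and 3 lower, with a median log2 fold change of −0.05. This is no larger a share than the 40.2% higher and 39.8% lower of all genes. Skp1, the linker of the ligase, fell by 0.73 on the log2 scale from 213.3 ± 3.93 TPM. Nedd8, which activates the cullin, changed by −0.14 and Cul1, the cullin itself, by −0.07. Uba3 and Ube2m, the enzymes that attach Nedd8, rose by 0.45 and 0.36, and Fbxw11, a receptor that recognises phosphorylated IκB, rose by 0.20. The call of Nedd8 was lost without inhibitor replicate 2 (log2 fold change −0.08, adjusted p = 0.102, edgeR, with 0.00042 to 0.102 over all alternatives), and that of Cul1 was lost under 8 of 13 alternatives (adjusted p 0.0117 to 0.105). Exons of Nedd8 overlap those of Gmpr2 on the opposite strand over 184 bases, and those of Cul1 overlap a pseudogene over 192 bases.

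Among 18 further IκB family genes and negative regulators, 15 were tested, 9 of them higher and 4 lower, with a median log2 fold change of 0.21. All genes tested were higher in 40.2% and lower in 39.8%, and 13 called of 15 is near their 80.0%. Zc3h12a, which encodes Regnase-1, a nuclease that destroys inflammatory transcripts, fell from 26.4 ± 0.577 to 7.61 TPM, a log2 fold change of −1.76 ± 0.0644 (SE; edgeR adjusted p = 1.02e-30). It was the only one of the 15 to fall past both cutoffs. Partners of A20 moved in opposite directions, since Tnip2 rose by 1.18 on the log2 scale from 9.33 ± 0.28 TPM and Tnip1 changed by −0.57 from 37.6 ± 1.36 TPM. Rnf11, another protein of the A20 complex, rose by 0.91, and Cyld, a deubiquitinase, changed by −0.40. Nfkbil1, an IκB-like gene, rose by 0.84, but its exons overlap those of Atp6v1g2 on the opposite strand over 144 bases and that gene changed by −0.58.

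In a list of 36 genes that NF-κB is known to switch on, most of those tested fell. The list was chosen with earlier results of these data known, and it leaves out the members and the genes of the other lists. Of the 36, 34 are listed in the table, and 8 of those were below the filter. Of the 26 tested, 19 were lower, 4 higher and 3 did not pass the test, beside 39.8% lower and 40.2% higher of all genes. Past both cutoffs were 15 lower and 2 higher genes, beside 10.1% and 6.48% of all genes. The median log2 fold change of the list was −1.47, beside 0.00 for all genes tested, and the called falls ran from −0.47 to −4.91. The largest was that of Mmp3, a matrix metalloproteinase gene named after its value was seen. It was near the floor, at 1.40 and 0.04 TPM on 68 and 2 reads. C3, the central complement protein, was at 28.4, 27.3 and 24.2 TPM with IL-1β and at 1.21, 1.65 and 1.45 TPM with the inhibitor, a log2 fold change of −4.35 ± 0.08 (SE; edgeR adjusted p = 1.24e-40). Vcam1, an adhesion molecule, went from 2.95 ± 0.24 to 0.30 TPM, a log2 fold change of −3.25. Nos2, the inducible nitric oxide synthase, went from 111.4 ± 2.27 to 12.4 TPM, a log2 fold change of −3.14. The 4 genes that rose were Gch1, which makes the cofactor of nitric oxide synthase (1.81), Lif, a cytokine of the IL-6 family (1.26), Ptgs2, the inducible cyclooxygenase (0.39), and Bcl2l1, a survival gene named after its value was seen (0.25). Gch1 rested on 79 reads without the inhibitor and 293 with it, Lif on 81 and 205, and Vcam1 on 293 and 32. Mmp3 and Vcam1 are counted among the 19 lower genes and the 15 past both cutoffs. Both passed the filter on low counts only through the group without the inhibitor, where they were higher. With limma on log2(TPM + 1), a scale that understates changes of low genes, the values were −1.61 for Vcam1, −3.50 for C3, 1.16 for Gch1 and 0.61 for Lif, all still called. The list therefore holds more genes that fell than genes that rose. Of the members, Nfkbiz, Nfkb1, Nfkbia and Tnfaip3 fell, while Nfkbib, Relb, Nfkbie, Nfkb2 and Rela rose.

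**Figure D5:**
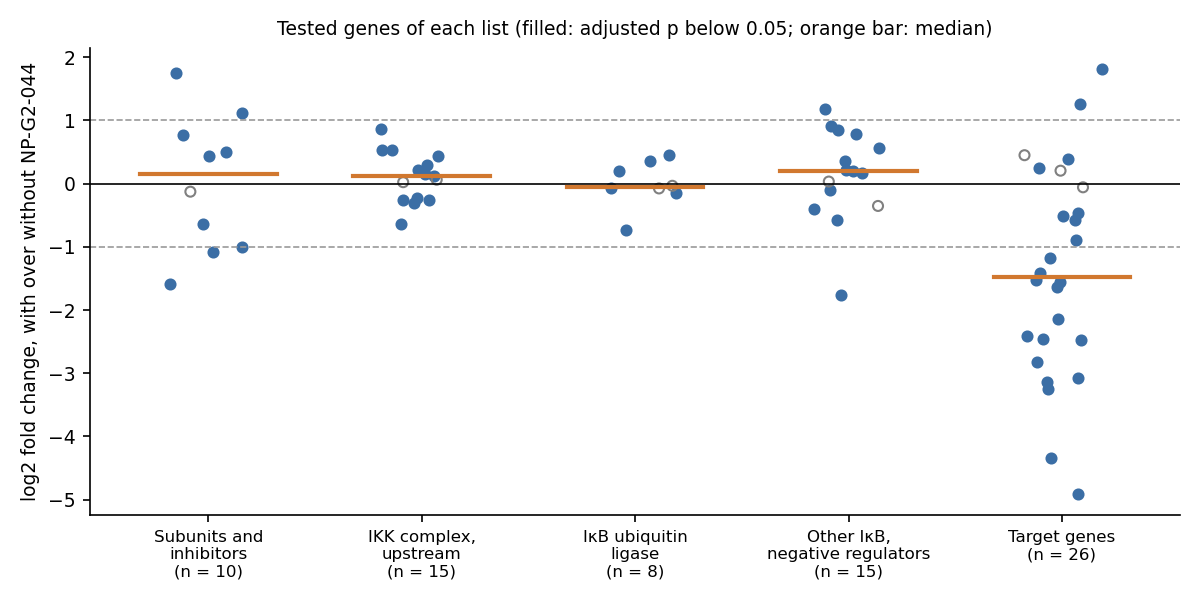
Log2 fold change of every tested gene of the members and of the 4 pathway lists, with over without NP-G2-044 (filled, adjusted p below 0.05; open, not), with an orange bar for the median and dashed lines at −1 and 1. The median of the target genes lies at −1.47, and those of the other lists lie between −0.05 and 0.21.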

How the data were processed

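RNA-sequencing libraries of ATDC5 cells, 3 with IL-1β and 3 with IL-1β plus NP-G2-044, were analysed from the deposited table. Per the labels, the submitters' processing notes name cutadapt, HISAT2 2.0, StringTie and mm10; for the annotation and the counting step, not given in the sources used here. The authors deposited expected counts (10.17% to 11.06% of values not whole), TPM and FPKM per library, besides their group means. FPKM and the means were not used. Expected counts were rounded, filtered with filterByExpr (minimum count 10), normalized with TMM and tested in edgeR 4.0.16 (R 4.3.3; glmQLFit, robust; glmQLFTest) without covariates, after a test on simulated data. Standard errors are the log2 fold change over the square root of F. Levels are the authors' TPM. Members and gene lists were chosen with earlier results of these data known. Named were all members, the 3 largest rises and falls per list among genes with an adjusted p below 0.05 and a mean of at least 1 TPM, Fscn1, Col2a1, Sox9 and Ptprc. Exon overlaps are from GENCODE vM21 (GRCm38). Alternatives included DESeq2 1.42.0 and limma 3.58.1 on log2(TPM + 1) and log2(TPM + 0.1). Each library was counted as 1 replicate. Read counts of libraries in a group differed by 1.54 to 2.39 times sampling noise (mean squared deviation over the binomial variance). That spread does not show if the libraries are independent. Whether cultures were separate is not in the labels, and p-values measure the spread between these libraries.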

Additional observations from a re-analysis of the deposited data

How the results depend on the processing

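For 9 of the 10 members the direction and the side of the 0.05 threshold held under all 13 alternatives: DESeq2 size factors, library size alone, no filter, DESeq2's own test, limma on log2(TPM + 1) and log2(TPM + 0.1), the replicate number as a block, and each library left out. The exception was Rel, called without inhibitor replicate 2. With the null set at a fold of 2 in edgeR, Nfkbiz, Nfkb1, Nfkbib and Relb were called and Nfkbia was not (adjusted p = 1.0). With any library left out, 2 or 3 members were lower past both cutoffs. In the IκB kinase list 5 genes instead of 8 were higher with limma on log2(TPM + 0.1); the cause was not tested. In the ligase list 1 to 3 genes were lower with a library left out. Of all genes, 514 higher and 802 lower passed both cutoffs with limma on log2(TPM + 1), against 776 and 1211 in edgeR. Other scalings moved the median of all genes by less than 0.01 on the log2 scale. Same-numbered libraries did not deviate together (correlations −0.093, −0.023 and 0.026), and no IL-1β library correlated best with its own number. With the replicate block 5 members were higher and 4 lower as before, and of all genes 4778 were higher and 4719 lower, against 4816 and 4768; Cul1 was no longer called (adjusted p = 0.0596). Precision at Nfkbie, with 102 to 226 reads a library, limits what could be seen there.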
